A study of Mus musculus with 4 samples.

Results

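The 10 genes described here were listed as secreted, androgen-responsive and identity genes of Sertoli cells: Sox9, Wt1, Rhox5, Rhox8, Trf, Clu, Ctsl, Cst9, Cst12 and Defb19. They were taken by gene symbol from the 55450 genes of the deposited tables, and all 10 were found. Expression was measured in single cells dissociated from mouse testis, with droplet-based RNA sequencing on the 10x Chromium system. The mice had been fed either a high-fat diet (HFD), with libraries HFD 1 and HFD 2, or a normal diet (ND), with libraries ND 1 and ND 2; the diets are thus compared as 2 against 2 libraries. Strain, genotype, age, diet composition and time on the diet are not given in the sources used here. The labels do not say whether the libraries are from different mice, so p-values measure only the spread between these 4 samples, which may be technical. The name of the set held for 6 of the 10 genes, whose level among the 10 named classes was highest in Sertoli-like cells. In 1 unnamed cluster of 44 cells, where endothelial markers scored highest, Wt1 was higher. Trf and Clu went against the name, and Ctsl and Defb19 had overlapping levels in Leydig-like and Sertoli-like cells.

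Sertoli cells are the somatic cells of the seminiferous tubule that enclose and feed the developing germ cells. Sox9 and Wt1 encode transcription factors that set and hold Sertoli identity, and Rhox5 and Rhox8 encode X-linked homeobox factors, of which Rhox5 is a classic androgen-responsive gene. The secreted products include carriers (transferrin, from Trf, for iron), the chaperone clusterin (Clu), the protease cathepsin L (Ctsl), relatives of cysteine protease inhibitors (Cst9, Cst12) and a beta-defensin (Defb19). Leydig cells, outside the tubules, make testosterone.

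The libraries held 13561 to 15290 barcodes, where the study states about 13000 recovered cells per channel, and 143748262 to 154221188 unique molecular identifiers (UMIs, counts of single transcripts). Filters on quality and doublets left 13122, 13502, 14468 and 13825 cells in HFD 1, HFD 2, ND 1 and ND 2. Between 42 and 65 barcodes were shared by any pair of libraries. Cells were clustered without the 10 genes, and clusters were named from marker genes that exclude them, which gave 10 classes and left 35.6% of cells in 10 unnamed clusters. The Sertoli-like class had 293, 304, 377 and 348 cells in the same order, and all 6 of its markers (Aard, Cldn11, Mro, Fshr, Tsx and Dhh) were detected, at a summed 1489 to 1857 CPM per library, where CPM is the UMI count of a gene scaled to 1000000 UMIs of the class. Spermatid RNA was also present in this class. All 8 elongating-spermatid markers were detected, at a summed 72830 to 87480 CPM per library, against 4739 to 6958 CPM in Leydig-like cells. Diet ratios in Sertoli-like cells are therefore also given without sub-clusters 20.3 and 20.5, the richest in germ-cell markers, and 20.4, whose cells were very deep.

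On the mouse build GRCm38 (mm10), all 10 are protein-coding genes. Rhox5 (chrX:37804842-37808876) and Rhox8 (chrX:37874778-37878944) share a chromosome, and Sox9 (chr11:112782224-112787760), Trf (chr9:103204001-103230444), Clu (chr14:65968483-65981547) and Ctsl (chr13:64359337-64370890) stand alone. Chromosome 2 carries Wt1 (chr2:105126529-105173616), Cst12 (chr2:148789361-148793546), Cst9 (chr2:148835147-148838738) and Defb19 (chr2:152576086-152580312). The 250 bases before the starts of Cst9 and Cst12 are shown because these neighbours were both highest in Sertoli-like cells and went together from cell to cell, although in Leydig-like cells they measured 18.9 CPM, with 51 of the 134 Cst9 UMIs in 1 cell, and 1.997 CPM. Both are read on the plus strand from RefSeq promoters of GRCm38.p6, at chr2:148834897-148835146 for Cst9 and chr2:148789115-148789364 for Cst12, whose last bases lie inside the gene as GENCODE annotates it. Capitals mark a GATA motif (GATAA, on either strand), the motif bound by GATA factors.
Cst9: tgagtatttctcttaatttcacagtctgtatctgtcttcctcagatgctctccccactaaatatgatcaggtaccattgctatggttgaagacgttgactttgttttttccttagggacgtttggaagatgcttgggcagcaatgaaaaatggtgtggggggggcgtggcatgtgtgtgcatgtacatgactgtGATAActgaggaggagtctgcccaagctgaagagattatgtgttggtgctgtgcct
Cst12: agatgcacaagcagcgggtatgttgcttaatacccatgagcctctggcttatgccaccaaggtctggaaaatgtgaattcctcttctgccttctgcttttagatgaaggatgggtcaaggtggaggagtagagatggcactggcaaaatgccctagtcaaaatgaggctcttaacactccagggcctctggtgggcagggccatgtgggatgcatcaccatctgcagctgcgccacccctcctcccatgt
The Cst9 window held GATAA at 56 bases before the start, and the Cst12 window did not hold it. Of 32851 promoter windows of this length, 22.6% held GATAA on either strand. AGAACA (part of the androgen receptor's site), AACAAT (a SOX motif) and TATAAA were searched on both strands and were in neither window. These letters occurred in 16.1%, 9.42% and 12.4% of windows. Aligned to each other, the windows matched at 127 of 221 aligned positions (57.5%). RefSeq windows matched by symbol for 4 of the 10 genes, and those of Rhox5 and Ctsl are not printed because their RefSeq start is 50234 and 370 bases from the GENCODE start. The Rhox5 window held AGAACA (at -225 from the RefSeq start) and, overlapping it, AACAAT (at -227), both on the opposite strand, and the Ctsl window held AACAAT (at -143).

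The identity genes had few UMIs, most of them in Sertoli-like cells. Sox9 measured 12.01, 13.05, 26.22 and 20.53 CPM in the Sertoli-like cells of HFD 1, HFD 2, ND 1 and ND 2 (mean 18.0 ± 6.69, SD, n = 4). The next class, fibroblast-like cells, had 0.791 ± 1.58 CPM, from 1 UMI in 1 library. Sertoli-like cells held 118 of the 188 Sox9 UMIs in all kept cells (62.8%). Wt1 measured 34.0, 28.1, 42.2 and 50.1 CPM (mean 38.6 ± 9.62, SD, n = 4) in the same order. Its next class was again fibroblast-like, at 4.48 ± 4.91 CPM, and Sertoli-like cells held 71.9% of its 349 UMIs. All 4 Sertoli-like values of both genes lay above every value of any other named class.

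Both homeobox genes had the same order of classes at the top. Rhox5 measured 43.4, 45.0, 52.4 and 58.6 CPM in Sertoli-like cells (mean 49.9 ± 7.03, SD, n = 4), 11.2-fold the 4.44 ± 5.16 CPM of macrophage-like cells, which rested on 6 UMIs. Rhox8 measured 251, 224, 211 and 202 CPM (mean 222 ± 21.7), 19.1-fold the 11.6 ± 5.998 CPM of macrophage-like cells. Below Sertoli-like cells the ranges of neighbouring classes overlapped for both genes, except those of Rhox8 in round-spermatid-like and in pachytene and later spermatocyte-like cells, the lowest 2. Sertoli-like cells held 75.6% of the 427 Rhox5 UMIs and 78.5% of the 1813 Rhox8 UMIs.

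The carriers went against the Sertoli label. Trf was highest in macrophage-like cells, at 167, 132, 190 and 206 CPM in HFD 1, HFD 2, ND 1 and ND 2 (mean 174 ± 32.2, SD, n = 4). Its level was 12.9 ± 5.75 CPM in Leydig-like, 10.5 ± 2.22 in fibroblast-like and 3.22 ± 1.93 in Sertoli-like cells. The Sertoli-like value came from 1, 8, 7 and 5 UMIs per library. Of the 424 Trf UMIs, 52.6% lay in macrophage-like cells, 24.5% in Leydig-like cells and 4.95% in Sertoli-like cells. Macrophage markers summed to 17.3 to 47.1 CPM in Sertoli-like cells and to 128 to 220 CPM in Leydig-like cells, against 7522 to 11080 CPM in macrophage-like cells; their part in the Trf level was not tested.

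Clu was highest in Leydig-like cells, at 1254, 1169, 1328 and 1272 CPM in the same order (mean 1256 ± 65.7, SD, n = 4). In Sertoli-like cells it measured 334, 279, 402 and 435 CPM (mean 363 ± 69.5), 3.47-fold lower, and in every other named class its mean was at or below 20.2 CPM. Both orders held in each library. Leydig-like cells held 65.7% of the 14722 Clu UMIs and Sertoli-like cells 15.99%.

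Ctsl and Defb19 were shared between the same classes, at mean levels that differed little over the 4 libraries. Ctsl measured 442 ± 31.7 CPM in Leydig-like and 413 ± 49.9 CPM in Sertoli-like cells (SD, n = 4), and the ranges of 401 to 469 and 348 to 455 CPM overlapped. With finer clustering (Leiden resolution 2) the order of these values turned, to 409 and 413 CPM. Fibroblast-like cells followed at 201 ± 30.1 CPM and macrophage-like cells at 165 ± 20.8 CPM. Defb19 measured 2112 ± 372 CPM in Leydig-like and 1909 ± 230 CPM in Sertoli-like cells, again with overlapping ranges. The order of the Defb19 levels was not the same in both diets: Leydig-like cells had 1795 and 1785 CPM and Sertoli-like cells 2247 and 1804 CPM in HFD 1 and HFD 2, while in ND 1 and ND 2 they had 2459 and 2410 against 1736 and 1850 CPM. The test of that difference between classes did not pass (edgeR adjusted p 0.107). Macrophage-like cells came next, at 89.9 ± 49.6 CPM. Leydig-like cells held 47.6% of the 34901 Defb19 UMIs and Sertoli-like cells 35.1%, but the order turned in HFD 1 (37.4% and 43.0%) and, by little, in HFD 2 (40.3% and 40.6%).

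The cystatin relatives had the largest gap between Sertoli-like cells and the next class. Cst9 measured 1013, 790, 734 and 852 CPM in HFD 1, HFD 2, ND 1 and ND 2 (mean 847 ± 121, SD, n = 4), 40.6-fold the 20.9 ± 15.3 CPM of macrophage-like cells. Cst12 measured 866, 692, 732 and 861 CPM (mean 788 ± 89.3), 33.1-fold the 23.8 ± 18.6 CPM of macrophage-like cells. Sertoli-like cells held 79.1% of the 6866 Cst9 UMIs and 80.7% of the 6279 Cst12 UMIs. In Leydig-like cells, where Clu, Ctsl and Defb19 were high, Cst12 measured 1.997 ± 1.268 CPM.

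**Figure D1:**
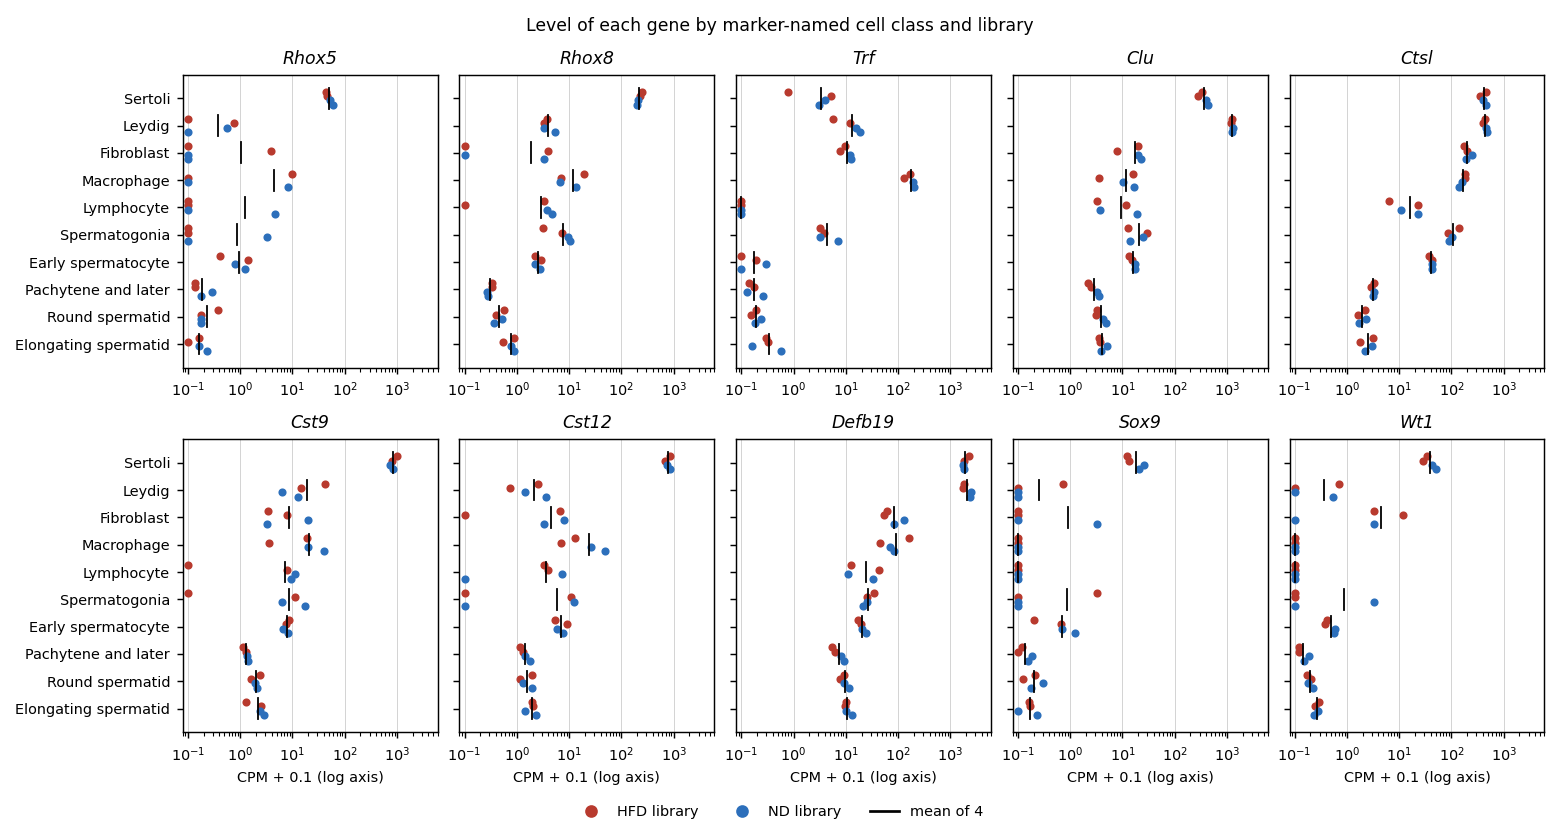
Level of each gene (CPM + 0.1, log axis) in the 10 classes named by markers; each point is 1 library and each black bar the mean of 4. Rhox5, Rhox8, Cst9, Cst12, Sox9 and Wt1 stand highest in Sertoli-like cells, Trf in macrophage-like cells (174 CPM) and Clu in Leydig-like cells (1256 CPM), while the points of Ctsl and Defb19 overlap between Leydig-like and Sertoli-like cells.

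**Figure D2:**
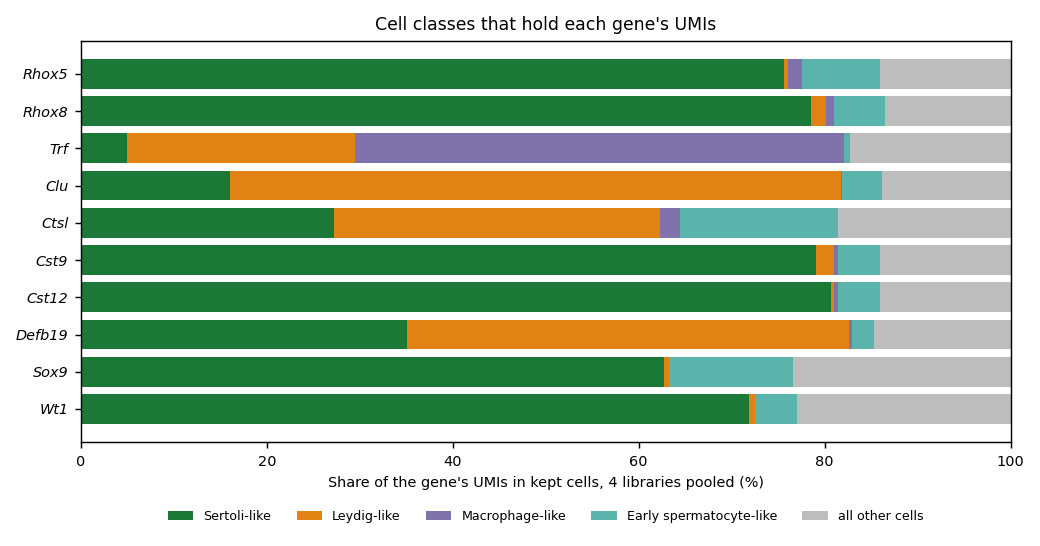
Share of each gene's UMIs by class in percent, over all kept cells of the 4 libraries. Sertoli-like cells hold 62.8% to 80.7% of the UMIs of 6 genes, 27.3% to 35.1% of those of Ctsl and Defb19, 15.99% of those of Clu and 4.95% of those of Trf.

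The share of cells with a UMI was compared after each cell had been thinned to 2000 UMIs, which kept 930 of 1322 Sertoli-like cells, the others being shallower. Of these 930 cells, 90.4% had Defb19, 75.5% Cst9, 74.7% Cst12, 46.6% Ctsl, 40.7% Rhox8, 39.9% Clu, 11.3% Rhox5, 10.4% Wt1, 3.23% Sox9 and 0.753% Trf. In lymphocyte-like cells thinned alike, a class outside the tubules, Defb19 was seen in 4.32%, Ctsl in 3.24%, Clu in 2.70%, Cst9 in 1.62% and Rhox8 in 1.08%. The unthinned median depth was 2722.5 UMIs in Sertoli-like and 2142 UMIs in lymphocyte-like cells. In Leydig-like cells 90.4% had Defb19, 83.4% Clu and 53.2% Ctsl, but 1.59% had Cst9. In macrophage-like cells 35.3% had Trf. Without thinning, the Sertoli-like shares were 93.1% for Defb19, 83.2% for Cst9 and 17.7% for Rhox5. By diet, Ctsl was seen in 49.6% and 49.6% of thinned Sertoli-like cells in HFD and in 42.7% and 43.9% in ND. Cst9 was seen in 80.6% and 76.3% in HFD and in 73.2% and 71.3% in ND. The Cst9 difference depended on the depth chosen. Ctsl was higher in HFD without overlap at each depth, and without thinning was seen in 66.9% and 63.5% against 52.3% and 58.3%. Thinned to 1000 UMIs, which kept all 1322 cells, Ctsl was at 35.8% and 32.6% against 29.7% and 30.5%, still without overlap, but Cst9 overlapped, at 57.7% and 53.3% against 53.6% and 55.2%. Defb19 overlapped too, at 80.5% and 75.3% against 76.4% and 79.9%. Cst12 was lower in HFD at 2000 UMIs, at 73.8% and 72.0% against 76.4% and 77.0%, but higher without thinning, at 83.3% and 83.9% against 76.9% and 81.0%. Sox9 was seen in 2.02% and 3.02% of cells thinned to 2000 UMIs in HFD and in 4.55% and 3.48% in ND, and Rhox5 in 9.68% and 10.8% against 14.1% and 10.9%. Both were lower in HFD without overlap at 2000 UMIs, at 1000 UMIs and without thinning. Clu overlapped at 2000 UMIs but was seen in more HFD cells at 1000 UMIs, at 29.4% and 27.0% against 24.7% and 25.3%, although its level in CPM was lower in HFD. An exact permutation test of 2 against 2 libraries cannot give a p below 0.3333, so it cannot tell whether these shares differ.

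Within the Sertoli-like class the genes were not spread evenly over its 8 sub-clusters, whose levels are a description without a test. A sub-cluster of 29 cells (numbered 20.6) had the highest level of Amhr2, the receptor for anti-Müllerian hormone, at 906 CPM. Its score for Sertoli markers was also the highest, at 3.87 against 3.61 in 20.1, the next. All 6 markers were counted as detected in 20.6, and 4 or 5 in each other sub-cluster. Their summed level was 2470 CPM there, below 4033 CPM in 20.1 and 4261 CPM in 20.7. Sub-cluster 20.6 made up 2.19% of the class, but held 36.7% of its Clu UMIs, 30.5% of its Sox9 UMIs, 23.7% of its Ctsl UMIs and 21.1% of its Wt1 UMIs. Its level of Clu was 3759 CPM, and that of Ctsl 2749 CPM, while the other 7 sub-clusters had at most 674 CPM of Clu and 868 CPM of Ctsl. Sparc, which encodes a secreted matrix protein, was at 2126 CPM there and at or below 510 CPM in the others. It had 5 cells from the HFD libraries (2 and 3) and 24 from the ND libraries (12 in each). Its share of the class's Clu UMIs was 8.98% and 17.3% in HFD and 47.8% and 56.5% in ND.

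Rhox5 peaked elsewhere. A sub-cluster of 47 cells (20.7) had 550 CPM of Rhox5 and 784 CPM of Rhox8, and held 21.1% of the class's Rhox5 UMIs in 3.56% of its cells. It had 15 and 8 cells from HFD and 13 and 11 from ND. Cst9, Cst12 and Defb19 reached 2027, 1924 and 4850 CPM in sub-cluster 20.1, which had 220 cells and 19181 CPM of spermatocyte and spermatid markers, and Cst12 also reached 2039 CPM in sub-cluster 20.6. Sub-clusters 20.3 and 20.5 (255 and 159 cells) carried 137704 and 159810 CPM of those markers, and sub-cluster 20.4 (58 cells) had a median of 19018 UMIs per cell. In 20.4 and 20.5 all 10 genes were below their class level. The Sertoli markers were also lowest there, at 531 and 840 CPM, and their part in these levels was not tested.

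**Figure D3:**
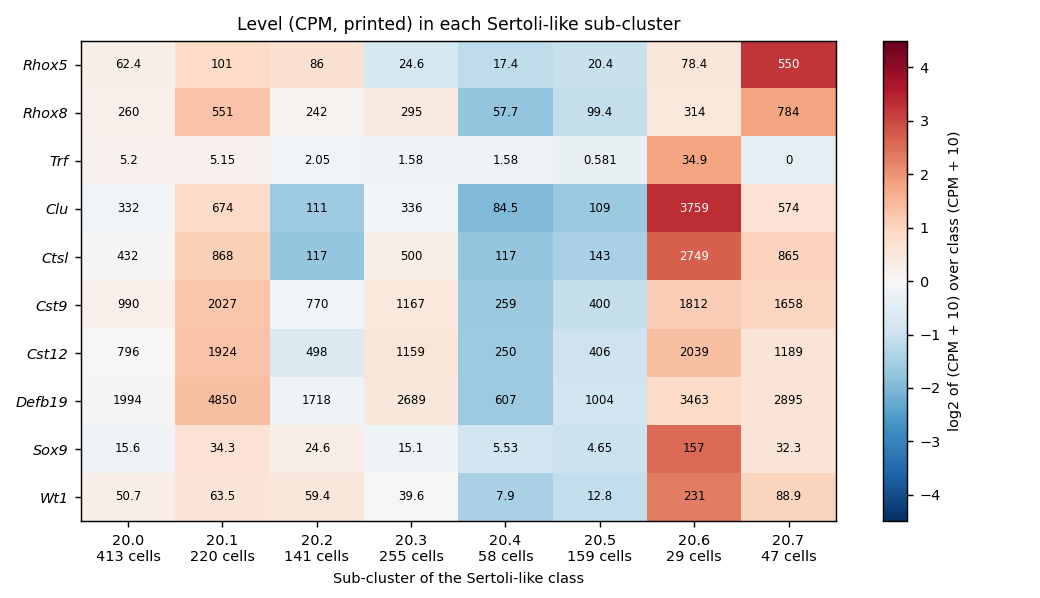
Level of each gene (printed, CPM) in the 8 sub-clusters of the Sertoli-like class, all libraries pooled; colour is the log2 ratio of sub-cluster over class after adding 10 CPM to each. Clu, Ctsl, Sox9 and Wt1 are highest in sub-cluster 20.6 (29 cells) and Rhox5 in sub-cluster 20.7 (47 cells).

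Among single Sertoli-like cells, Cst9, Cst12 and Defb19 went together. Spearman's rho over cells lay at 0.477 to 0.559 in the 4 libraries for Cst9 with Cst12, at 0.539 to 0.607 for Cst9 with Defb19 and at 0.560 to 0.600 for Cst12 with Defb19. Clu with Ctsl gave 0.298 to 0.409. These values were taken over cells thinned to 2000 UMIs, without the shallower cells. They are a description, since cells of 1 library share their preparation. Spermatocyte and spermatid markers differed between the sub-clusters, from 10315 CPM in 20.6 to 159810 CPM in 20.5. The part of these markers in the rho values was not tested. Over the 40 sums of class and library, Pearson's r of log2(CPM + 1) was 0.950 for Clu with Defb19, 0.884 for Rhox8 with Cst9 and -0.02 for Trf with Sox9. Of 6099 genes at 20 CPM or more in Sertoli-like cells, the 5 whose pattern over these sums was most like the mean of the 10 were Aard (r 0.978), Tspan17 (0.921), Gstm6 (0.919), Nr0b1 (0.891) and Cltb (0.888). Aard was also used to name the class.

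The relatives of the secreted genes did not all have the same class. Of 9 cystatin genes named Cst in the tables, 5 reached 20 CPM in Sertoli-like cells. Cst9 and Cst12 were highest there, Cst8 and Cst13 in elongating-spermatid-like cells (1515 and 611 CPM), and Cst3, which encodes cystatin C, in Leydig-like cells (3922 CPM). Of 43 beta-defensin genes, 4 reached 20 CPM. Defb36 (606 CPM) and Defb45 (197 CPM) were highest in Sertoli-like cells and had 2.38 and 0.640 CPM in Leydig-like cells, unlike Defb19. Of 42 Rhox genes, Rhox5 and Rhox8 alone reached 20 CPM in Sertoli-like cells.

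In the whole testis, that is all kept cells of a library summed, 8 of the 10 genes fell with the high-fat diet and none rose. Over all 25470 tested genes, edgeR called 34.3%, with 18.9% lower and 15.3% higher (quasi-likelihood test, Benjamini-Hochberg adjusted p under 0.05). The median log2 ratio of HFD over ND was -0.52 for the 10 genes and -0.02 for all genes. In such sums, fewer cells of a type, less RNA per cell and more RNA from other cells cannot be told apart. Pachytene and later spermatocyte-like cells held 52393021 and 51614913 UMIs in HFD 1 and HFD 2. They held 35682764 and 38215678 UMIs in ND 1 and ND 2, and their part in the ratios was not tested. Sertoli-like cells made up 2.23% and 2.25% of cells in HFD 1 and HFD 2 and 2.61% and 2.52% in ND 1 and ND 2. Leydig-like cells made up 1.86% and 2.04% in HFD and 2.81% and 3.01% in ND. The Sertoli-like difference of -0.319 percentage points was -0.068 when the class was defined by a marker gate and -0.153 at a mitochondrial limit of 10%. For both shares the exact two-sided permutation p was 0.3333, the smallest possible, and both HFD libraries were below both ND libraries. The same held for the round-spermatid-like (mean 22.17% in HFD and 27.23% in ND), elongating-spermatid-like, fibroblast-like, lymphocyte-like and macrophage-like shares. Pachytene and later spermatocyte-like cells went the other way, without overlap (mean 13.73% in HFD and 10.03% in ND). Early-spermatocyte-like and spermatogonia-like shares overlapped. The lower shares were thus not particular to Sertoli-like and Leydig-like cells.

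Sox9 measured 0.213, 0.213, 0.514 and 0.447 CPM in the order HFD 1, HFD 2, ND 1, ND 2 (31, 29, 68 and 60 UMIs). Both HFD libraries were under both ND libraries, and the log2 ratio was -1.16 (SE 0.22, edgeR's adjusted p 0.000823). Wt1 measured 0.481, 0.536, 0.718 and 0.827 CPM, without overlap, a log2 ratio of -0.60 (SE 0.17, adjusted p 0.0117). Rhox5 measured 0.626, 0.668, 0.907 and 0.931 CPM, also without overlap, a log2 ratio of -0.50 (SE 0.15, adjusted p 0.0164). The Wt1 call was lost without HFD 1 (adjusted p 0.0889), and the Rhox5 call without HFD 1 (0.097) or HFD 2 (0.0676). DESeq2 did not call Rhox5 (adjusted p 0.142) or Wt1 (0.111) and gave Sox9 no adjusted p, so it called 5 of the 10. Rhox8 measured 3.34, 3.14, 3.51 and 3.23 CPM, with overlapping groups and a log2 ratio of -0.05 (SE 0.091, adjusted p 0.713).

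Trf, the iron carrier, measured 0.536, 0.602, 0.861 and 1.12 CPM in the same order, giving a log2 HFD/ND ratio of -0.79 (SE 0.17; adjusted p by edgeR 0.0022). Clu measured 22.0, 20.8, 32.7 and 32.5 CPM, a log2 ratio of -0.60 (SE 0.047, adjusted p 1.55e-06). In both genes each HFD library was below each ND library. Ctsl measured 16.1, 14.9, 19.97 and 20.41 CPM, a log2 ratio of -0.37 (SE 0.054, adjusted p 0.000123). Defb19 measured 53.83, 50.04, 75.2 and 76.7 CPM, a log2 ratio of -0.54 (SE 0.047, adjusted p 3.88e-06). Cst12 measured 10.9, 10.0, 11.7 and 13.2 CPM, a log2 ratio of -0.25 (SE 0.069, adjusted p 0.0115), a call lost without HFD 2 (0.132) or ND 2 (0.104). Cst9, its neighbour on chromosome 2, measured 13.3, 11.3, 12.2 and 13.3 CPM with overlapping groups, and its ratio of -0.04 (SE 0.074, adjusted p 0.698) did not pass.

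**Figure D4:**
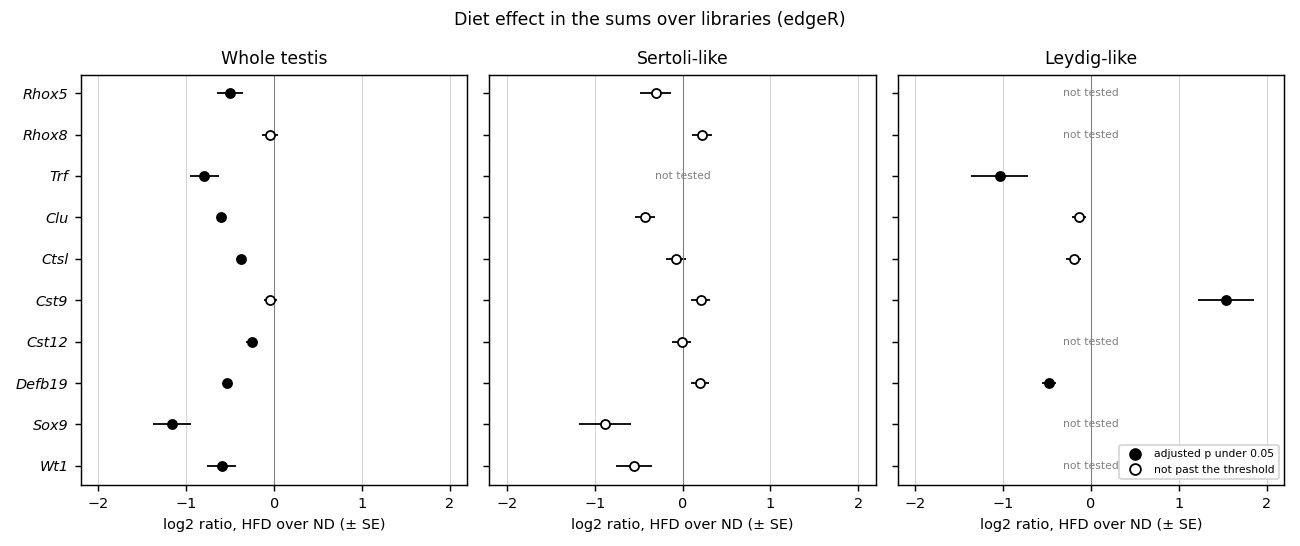
Log2 ratio of HFD over ND with its SE for each gene in the whole testis, in Sertoli-like cells and in Leydig-like cells, from 2 libraries per diet; filled points passed an edgeR adjusted p under 0.05. In the whole testis 8 of 10 genes are filled and lower in HFD, in Sertoli-like cells 0 of 9 tested, and in Leydig-like cells Trf and Defb19 are lower and Cst9 is higher; 51 of the 69 Cst9 UMIs of HFD 1 lie in 1 cell, without which Cst9 (ratio 0.36) and Trf do not pass.

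Leaving out 1 class at a time, a check added after the data had been seen, moved different genes. Without Leydig-like cells the Defb19 ratio went from -0.54 to -0.16 (edgeR adjusted p 0.0631), while Clu (-0.49), Ctsl (-0.21), Trf (-0.59), Sox9 (-1.21), Wt1 (-0.62), Rhox5 (-0.53) and Cst12 (-0.27) still passed. Leydig-like cells held 37.4% and 40.3% of the Defb19 UMIs in HFD 1 and HFD 2 and 55.0% and 52.9% in ND 1 and ND 2. Without Sertoli-like cells, where edgeR called 8538 of all 25372 tested genes, Wt1 (-0.08, adjusted p 0.879), Rhox5 (-0.30, adjusted p 0.431) and Cst12 (-0.15, adjusted p 0.396) no longer passed. Sox9, Trf, Clu, Ctsl and Defb19 still passed. For Sox9 this rested on few UMIs, since Sertoli-like cells held 118 of the 188 (62.8%). Early-spermatocyte-like and round-spermatid-like cells held 25 and 20 of the others. Without the 29 cells of sub-cluster 20.6 alone, of 54917 in all, the same 3 genes missed the threshold, with Wt1 at -0.33 (adjusted p 0.197), Rhox5 at -0.39 (0.0557) and Cst12 at -0.10 (0.228). Clu and Ctsl still passed, at -0.50 and -0.25.

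Within Sertoli-like cells 0 of the 9 tested genes passed edgeR's test, where 0.0098% of all 10206 genes did, and Trf had too few UMIs to be tested. At an unadjusted p under 0.05, 3 of the 9 (Clu, Sox9 and Wt1) and 742 of all genes were lower or higher, and DESeq2 called 0 of the 9. The median log2 ratio was -0.08 for the 9 genes and -0.01 for all genes. Clu measured 334 and 279 CPM in HFD and 402 and 435 CPM in ND, without overlap, giving a log2 HFD/ND ratio of -0.43 (SE 0.11; adjusted p by edgeR 0.161). Sox9 was at 12.01 and 13.05 CPM in HFD and 26.2 and 20.5 CPM in ND (log2 ratio -0.88, SE 0.29, adjusted p 0.417). Wt1 was at 34.0 and 28.1 CPM in HFD and 42.2 and 50.1 CPM in ND (log2 ratio -0.55, SE 0.20, adjusted p 0.488). The ratios of the others were -0.31 for Rhox5, 0.22 for Rhox8, 0.20 for Cst9, 0.20 for Defb19, -0.08 for Ctsl and -0.01 for Cst12, all with an adjusted p of 0.709 or higher.

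The calls of Clu, Ctsl and Wt1 in Sertoli-like cells depended on which sub-clusters were counted, in 3 choices of cells added after the data had been seen. The signs of Clu and Ctsl depended on it too, while the Wt1 ratio stayed below 0 in each choice. Without sub-clusters 20.3, 20.4 and 20.5, which were rich in germ-cell markers or very deep, Clu measured 540 and 502 CPM in HFD and 894 and 968 CPM in ND, a log2 ratio of -0.79 (edgeR adjusted p 2.28e-09). Ctsl then measured 642 and 578 CPM in HFD and 817 and 892 CPM in ND (log2 ratio -0.44, adjusted p 0.00943), and Wt1 45.4 and 49.8 against 97.7 and 106 CPM (log2 ratio -1.05, adjusted p 0.00651). In that choice 3 of the 9 tested genes fell, and edgeR called 115 of all 7343 tested genes, 60 lower and 55 higher. Sox9 measured 18.9 and 25.97 CPM in HFD and 58.6 and 44.2 CPM in ND, without overlap (log2 ratio -1.17, adjusted p 0.0654), and Rhox5 77.5 and 99.6 against 122 and 124 CPM, also without overlap (-0.45, adjusted p 0.321). The ratios of Rhox8, Cst9, Cst12 and Defb19 lay between -0.22 and 0.05 and did not pass. This choice kept the Amhr2-high sub-cluster 20.6, although its median of 7261 UMIs per cell passes the same depth limit of 5000 UMIs. When 20.6 was left out as well, 0 of the 10 genes and 0 of all 6618 tested genes passed edgeR's test, with 392 genes under an unadjusted p of 0.05. Clu then measured 466 and 357 CPM in HFD and 402 and 340 CPM in ND, with overlapping groups and a log2 ratio of 0.15 (adjusted p 0.891). Ctsl had a ratio of 0.15 (edgeR adjusted p 0.872). Wt1, at 38.7 and 42.95 CPM in HFD and 64.4 and 90.25 CPM in ND, did not overlap, with a log2 ratio of -0.91 (edgeR adjusted p 0.601). Sox9, at 15.5 and 20.4 against 34.1 and 27.3 CPM, and Rhox5, at 79.3 and 104 against 134.5 and 124 CPM, still did not overlap between the diets, with log2 ratios of -0.79 (adjusted p 0.82) and -0.51 (adjusted p 0.806).

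With 20.6 alone left out, Clu measured 307 and 234 CPM in HFD and 221 and 203 CPM in ND, a log2 ratio of 0.34 (edgeR adjusted p 0.406), and Ctsl had a ratio of 0.39 (adjusted p 0.222). The sign of both secreted genes thus turned without these 29 cells, 24 of them from ND. Sox9 and Wt1 stayed below 0, at -0.47 (adjusted p 0.901) and -0.29 (adjusted p 0.928). In the whole class, a mitochondrial limit of 10% gave a Clu ratio of -0.51 that passed (adjusted p 0.0191).

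**Figure D5:**
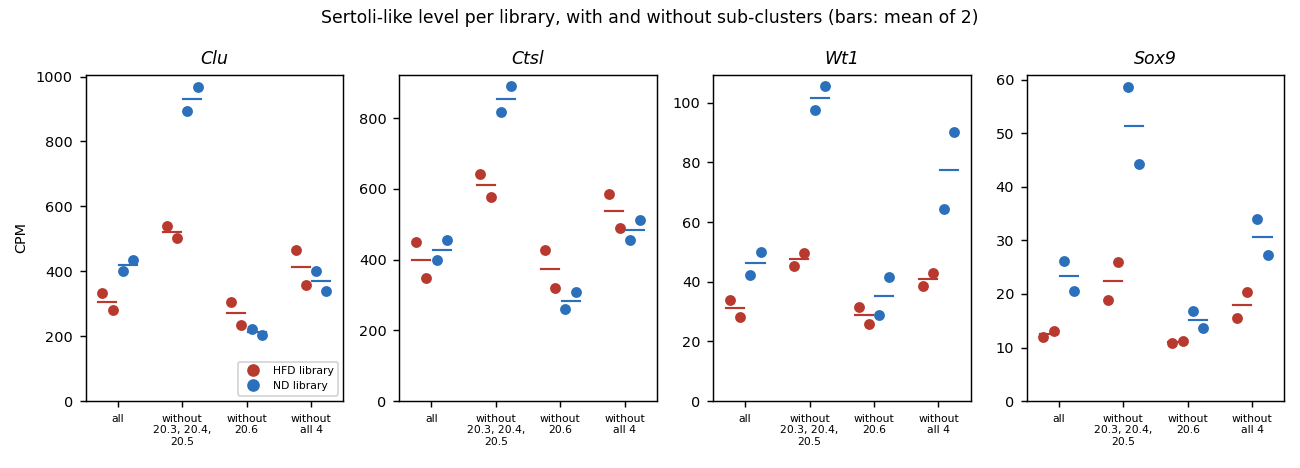
CPM of Clu, Ctsl, Wt1 and Sox9 in the Sertoli-like cells of each library for the whole class, without sub-clusters 20.3, 20.4 and 20.5 (the first and last rich in germ-cell markers, 20.4 very deep), without sub-cluster 20.6 (Amhr2-high) and without all 4; points are libraries and bars the mean of 2. Clu in HFD is under ND for the whole class (334 and 279 against 402 and 435 CPM), above ND without sub-cluster 20.6 (307 and 234 against 221 and 203 CPM), and overlaps ND without all 4 (466 and 357 against 402 and 340 CPM).

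In Leydig-like cells 3 of the 5 tested genes passed, where 4.87% of 11865 genes did (2.52% lower and 2.35% higher, edgeR adjusted p under 0.05). Defb19 fell: it measured 1795 and 1785 CPM in HFD and 2459 and 2410 CPM in ND, without overlap, giving a log2 HFD/ND ratio of -0.48 (SE 0.075; adjusted p by edgeR 1.21e-05). DESeq2 also called it, and at Leiden resolution 2 its ratio was -0.62 with an adjusted p of 0.0601. The 6 Leydig markers also summed lower in HFD, at 15310 and 15310 against 20070 and 16600 CPM. Those of pachytene and later spermatocytes summed to 414 and 398 CPM in HFD and 288 and 300 CPM in ND, with all 6 detected; the part of these markers in the Defb19 result was not tested. Between 90.6% and 94.8% of Leydig-like cells had a Defb19 UMI in each library before thinning. Trf counted 9 and 18 UMIs in the HFD libraries, with 34 and 43 in the ND libraries (5.52 and 11.7 against 15.3 and 19.0 CPM), and fell with a log2 ratio of -1.04 (SE 0.32, adjusted p 0.0466). This call was lost without HFD 1 (-0.58, adjusted p 0.546), ND 1 (-1.17, 0.0578) or ND 2 (-0.89, 0.264). Cst9 rose, from 14 and 29 UMIs in the ND libraries to 69 and 22 in the HFD libraries (log2 ratio 1.54, SE 0.32, adjusted p 0.00112), but 51 of the 69 UMIs of HFD 1 lay in 1 cell. Without that cell the ratio was 0.36 (adjusted p 0.641) and the adjusted p of Trf was 0.0506, and without HFD 1 it was 0.54 (adjusted p 0.625). Clu, at 1254 and 1169 against 1328 and 1272 CPM, did not pass (log2 ratio -0.14, SE 0.077, adjusted p 0.357), nor did Ctsl (-0.20, adjusted p 0.173).

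Whether Defb19 differed in its response between the classes was tested with the term for class by diet. The Sertoli-like minus Leydig-like difference in log2 ratio was 0.67 (SE 0.15), with an edgeR adjusted p of 0.107, so it was not called. None of the 10 genes was called, and 0.0233% of 12859 genes were (0.00778% with a lower and 0.0156% with a higher difference). For Sox9, Rhox5 and Wt1 this says nearly nothing, since they had 1, 2 and 2 UMIs in all Leydig-like cells and SEs of 2.22, 1.82 and 1.89. At an unadjusted p under 0.05 there were 3 of the 10 (Clu, Cst9 and Defb19) and 804 of all genes. DESeq2 called 0 of the 10 and 0 of all genes, and edgeR with no library block called 7 of all genes. Without HFD 2 the difference for Defb19 was 0.83 (adjusted p 8.71e-06) and that for Cst9 -1.71 (adjusted p 0.000141). HFD 1 is then the only HFD library, and 51 of its 69 Leydig-like Cst9 UMIs lay in 1 cell. Against macrophage-like cells neither tool called Rhox5, Rhox8, Trf, Clu, Ctsl, Cst9, Cst12 or Defb19, where edgeR called 0.0835% of 10773 genes. Sox9 and Wt1 had 0 UMIs in macrophage-like cells of all 4 libraries, so their difference could not be estimated.

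In pachytene and later germ cells the levels were low, with class means of at most 10.6 CPM for Clu, Ctsl and Defb19, while Ctsl averaged 105 CPM in spermatogonia-like and 41.0 CPM in early-spermatocyte-like cells. Defb19 measured 5.34 and 6.20 CPM in HFD and 7.96 and 9.13 CPM in ND in pachytene and later spermatocytes, giving a log2 HFD/ND ratio of -0.54 (SE 0.10; adjusted p by edgeR 0.0196), the 1 of 6 tested genes that passed there, where 2.13% of 17661 genes did (0.804% lower and 1.32% higher). In the same cells the 6 Leydig markers summed to 9.715 and 10.4 CPM in HFD and 12.53 and 16.01 CPM in ND, and the 6 Sertoli markers to 2.004 and 2.48 against 3.73 and 3.06 CPM. All of these markers were detected, and both sums were lower in HFD, as Defb19 was; their part in the result was not tested. The Defb19 call was lost when any 1 library was left out, with an adjusted p of 0.0727 to 0.397. The count over all genes fell as well, from 376 to 54 without HFD 1, 37 without HFD 2, 159 without ND 1 and 0 without ND 2. Clu was at 2.10 and 2.38 against 3.11 and 3.45 CPM in the same cells (adjusted p 0.074). In round-spermatid-like cells Clu had a ratio of -0.53 (adjusted p 0.0594) and Defb19 one of -0.34 (adjusted p 0.151), and none of 6 tested genes passed, where 1.72% of 19827 genes did (0.888% lower and 0.837% higher). In those cells Leydig markers summed to 14.25 and 14.25 against 16.7 and 18.1 CPM, and their part was not tested either. In macrophage-like cells Trf was at 167 and 132 against 190 and 206 CPM, a log2 ratio of -0.44 that did not pass (SE 0.25, adjusted p 0.699), and none of 3 tested genes passed, where 1.76% of 5678 genes did (1.36% lower and 0.405% higher). None of 7 tested genes passed in early-spermatocyte-like cells (0.638% of all, 0.326% lower and 0.312% higher), none of 6 in elongating-spermatid-like cells (8.3%, 4.13% lower and 4.16% higher) and none of 2 in fibroblast-like cells (0%). At an unadjusted p under 0.05 there were 2 in round-spermatid-like cells (of all genes, 3446 of 19827), 0 in macrophage-like cells (451 of 5678) and 1 each in early-spermatocyte-like (1922 of 14424), elongating-spermatid-like (3401 of 14984) and fibroblast-like cells (385 of 5504), and with so few genes tested nothing is read from these counts.

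Beside the 10, 67 other genes with known roles in or around Sertoli cells were read from the same fits, in 5 lists. In the whole testis 63 of them were tested, of which 28 fell and 4 rose, where 18.9% of all genes fell and 15.3% rose. No difference from these shares is read from the counts of any of the 5 lists, which were chosen with earlier results of these data known. Of the transcription factors and receptors, 10 of 16 tested fell and none rose (median log2 ratio -0.42, against -0.02 for all genes). They included Tcf21, a basic helix-loop-helix factor (-1.41, SE 0.18) that is also among the 7 fibroblast markers and had no UMI in Sertoli-like cells, the receptor Igf1r (-0.87, SE 0.10), the steroidogenic factor Nr5a1 (-0.56, SE 0.12) and Etv5 (-0.53, SE 0.15). In Leydig-like cells the 7 fibroblast markers, of which all but Col1a1 were detected, summed to 108 and 127 CPM in HFD and 163 and 190 CPM in ND, and their part in the Tcf21 result was not tested. Of the secreted signals 4 of 14 fell, namely Wnt5a (-1.11, SE 0.19), the inhibin subunit Inhbb (-0.85, SE 0.24), the Kit ligand Kitl (-0.59, SE 0.11) and the chemokine Cxcl12 (-0.56, SE 0.099), and 1 rose (median -0.20). The edgeR adjusted p of these genes was at most 0.0152.

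Of the secreted carriers, proteases and inhibitors, 11 of 17 tested fell and none rose (median log2 ratio -0.35). The largest changes among them were those of the protease inhibitors Timp1 (-1.05, SE 0.20), A2m (-0.55, SE 0.16) and Cst3 (-0.51, SE 0.041) and of the protease Ctsb (-0.57, SE 0.053). Genes known to respond to androgen or to Rhox5 split: Drd4 (-0.50) and Serpina5 (-0.27) fell and Cldn3 (0.54) and Ngfr (0.29) rose, of 9 tested (median 0.06). Among partners that bind the 10 products or their cargo, 4 of 10 fell, among them Ctsb, Cst3 and the ferritin light chain Ftl1 (-0.45), and the iron exporter Slc40a1 rose (0.96, SE 0.21). Without Leydig-like cells, 18 rather than 32 of the 63 passed, a share near that of all genes (7395 of 25107), and Ctsb turned to 0.07 (edgeR adjusted p 0.571). In Sertoli-like cells 0 of the 32 tested genes of the lists passed with edgeR and 0 with DESeq2. Under an unadjusted p of 0.05 there were 4, where 742 of all 10206 genes were. Without sub-clusters 20.3, 20.4 and 20.5, where 60 of 7343 genes fell, 4 of 26 tested passed and all fell: Sparc (-0.94), Inhbb (-1.78), Psap (-1.02) and Lrp8 (-1.28), which were named after their values had been seen; when 20.6 was left out as well, 0 passed.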

How the data were processed

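Single-cell RNA sequencing of mouse testis gave 4 libraries, 2 per diet. The deposited matrices hold UMI counts per gene and barcode without normalization, and their header names software version 3.0.2, per the file headers. The build was mm10 per the submitters' processing notes; aligner and annotation are not given in the sources used here. All 55450 identifiers matched GENCODE M21, which gave positions.

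Barcodes under 200 genes or above 20% mitochondrial UMIs were removed; 2810 doublets called by Scrublet (scanpy 1.11.5, expected rate 0.1) were left out. Cells were clustered on 2000 variable genes without the 10 listed genes, with 30 components, 15 neighbours and Leiden resolution 1, and mixed clusters again at resolution 0.5 (igraph 0.11.9, Python 3.11.15). Clusters were named from marker lists; each class is called by likeness.

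UMI counts were summed per library and class and tested with edgeR 4.0.16 (filterByExpr, TMM, quasi-likelihood test, Benjamini-Hochberg over all tested genes, threshold 0.05) in R 4.3.3, in each of the 9 classes that held 50 or more cells per library (spermatogonia-like cells fell short). Levels are CPM of the summed UMIs. Alternatives used DESeq2 1.42.0 and other filters, clusterings and sets of libraries. Shares of cells were compared by exact permutation tests.

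The 10 genes and the lists were chosen with earlier results of these data known. All 10 genes are named, and of the lists up to 4 genes each with the largest called change in the whole testis. Replicate numbers were not treated as pairs in the main tests.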

Additional observations from a re-analysis of the deposited data

How the results depend on the processing

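Calls among the 10 genes depended on tool and cells. In the whole testis edgeR called 8, DESeq2 5, edgeR without sub-cluster 20.6 5 and without Sertoli-like cells 5; leaving out 1 library gave 6 to 8. In Leydig-like cells 3 were called, against 1 with DESeq2, 0 at Leiden resolution 2, 1 without the 1 cell rich in Cst9 and 1 to 3 without 1 library. In pachytene and later spermatocyte-like cells 1 was called, against 0 with no filter on low counts, 0 with doublets kept, 2 with the replicate block and 0 to 0 without 1 library. Over all genes, DESeq2 called 6699 of 25470 in the whole testis and 106 of 11865 in Leydig-like cells, where Leiden resolution 2 gave 151 of 12305. Without sub-cluster 20.6 edgeR called 8555 of 25455 in the whole testis. In Sertoli-like cells 0 of the 10 genes were called, against 1 at a mitochondrial limit of 10% (of all genes, 22 of 9990). There were 3 without sub-clusters 20.3, 20.4 and 20.5 (115 of 7343), and 0 when sub-cluster 20.6 was left out with them (0 of 6618). Round-spermatid-like cells gave 0, but 2 with doublets kept and 0 to 2 without 1 library; early-spermatocyte-like and elongating-spermatid-like cells gave 0, and 0 to 1 without 1 library. The Sertoli-like minus Leydig-like term gave 0, 1 with no library block and 0 to 2 without 1 library. Of the list genes, 32 were called in the whole testis, 20 with DESeq2 and 18 without Leydig-like cells, and in Sertoli-like cells 0, 2 at the mitochondrial limit of 10% and 4 without sub-clusters 20.3, 20.4 and 20.5.

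Signs turned for small ratios (log2). In the whole testis Rhox8 became 0.08 at the mitochondrial limit and 0.045 without sub-cluster 20.6, with -0.105 to 0.004 without 1 library. Cst9 became 0.05, 0.059 and, without Sertoli-like cells, 0.014, with -0.171 to 0.075 without 1 library, and Ctsb became 0.071 without Leydig-like cells. In Sertoli-like cells a marker gate gave 0.015 for Rhox5, 0.049 for Ctsl and 0.118 for Cst12. Without sub-cluster 20.6, Clu was 0.344, Ctsl 0.389 and Cst12 0.076; without the other 3 sub-clusters as well, Clu was 0.154, Ctsl 0.155 and Defb19 -0.028. Cst12 was 0.024 at the mitochondrial limit. Without 1 library Ctsl ranged from -0.241 to 0.099 and Cst12 from -0.153 to 0.147. The cause of these changes was not tested.

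Over 45 gene results there were 581 re-tests, of which 24 reversed, 57 lost their call or had no adjusted p, and 8 gained a call. Counts over all genes moved too: from 578 in Leydig-like cells to between 106 and 1441, from 1 in Sertoli-like cells to between 0 and 115, from 8728 in the whole testis to between 5098 (without HFD 2) and 10173 (replicate block), from 376 in pachytene and later spermatocyte-like cells to between 0 (without ND 2) and 1166 (replicate block), from 342 in round-spermatid-like cells to between 10 (no filter on low counts) and 2390 (without ND 1), from 1243 in elongating-spermatid-like cells to between 97 (without HFD 2) and 1291, and from 92 in early-spermatocyte-like cells to between 6 (without HFD 2) and 751 (without ND 1). In fibroblast-like cells the count over all genes went from 0 to 20 with the replicate block, and moved furthest without HFD 1. In macrophage-like cells it went from 100 to 17 with DESeq2. The lower share of Sertoli-like cells, -0.319 percentage points in HFD, was -0.068 by the marker gate. Whether replicate numbers shared by HFD and ND are a pairing is not given. Deviations of same-numbered libraries correlated at 0.0977 in the whole testis, -0.0295 in Sertoli-like and -0.0403 in Leydig-like cells. With 2 libraries per diet these values cannot decide it. With the replicate block, 8 genes were called in the whole testis, 3 in Leydig-like and 0 in Sertoli-like cells. Depth limited Sox9 and Trf, with 118 and 21 UMIs over all Sertoli-like cells.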

Other observations

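Of the 4 early-spermatocyte-like clusters, 3 had higher levels of Ctsl, Clu and Defb19 than the largest one, and also of genes whose products are not secreted. The values given here are pooled over libraries. Cluster 19.0 (223 cells) had 297 CPM of Ctsl, 102 CPM of Clu and 118 CPM of Defb19. Cluster 19.1 (317 cells) had 218 CPM of Ctsl, 133 CPM of Clu and 142 CPM of Defb19. Cluster 19.2 (96 cells) had 163 CPM of Ctsl, 157 CPM of Clu and 84.4 CPM of Defb19. The remaining cluster of the class, cluster 3 with 2179 cells, had 23.2 CPM of Ctsl, 7.41 CPM of Clu and 12.2 CPM of Defb19. Sox9, Wt1 and Rhox8 had 4.88, 2.71 and 9.76 CPM in cluster 19.0 and 3.405, 1.135 and 31.8 CPM in cluster 19.1. They had 3.01, 3.01 and 9.04 CPM in cluster 19.2, against 0.321, 0.241 and 1.34 CPM in cluster 3. Sox9 and Wt1 had at most 12 UMIs in each of these clusters. After early-spermatocyte markers, Sertoli markers scored highest in 19.0 and 19.1, and their part in these levels was not tested. Cst9 and Cst12 were at 47.2 and 47.7 CPM in cluster 19.0, at 80.6 and 85.1 CPM in cluster 19.1 and at 42.2 and 54.2 CPM in cluster 19.2. In cluster 3 they were at 3.67 and 2.70 CPM. An unnamed cluster of 44 cells (cluster 26) had 313 CPM of Clu and 169 CPM of Wt1, from 52 and 28 UMIs, and no UMI of Cst9 or Cst12. Endothelial markers scored highest in this cluster, with 7 of them detected.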
